A study of Mus musculus with 18 samples.

Results

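The aminoacyl-tRNA synthetases were followed in mouse bone marrow-derived dendritic cells with and without Ubc9, before and after lipopolysaccharide (LPS), the cell wall component of Gram-negative bacteria. The genes were taken by symbol: a 1-letter amino acid code followed by "ars", with or without a final 1 or 2, plus Farsa and Farsb, the alpha and beta chains of the phenylalanine enzyme. This gave 33 of the 19938 genes measured, read from 34 probe sets, with the brighter probe set kept where a gene had more than 1. The rule sorts them into 17 cytosolic and 16 mitochondrial enzymes by the final 2 of the symbol. Aars, the cytosolic alanine enzyme, was represented by a probe set that carries the symbol of another gene as well, and it was not analysed here. Eprs, a single protein that charges both glutamate and proline tRNAs, is spelled differently and is described with the partner genes.

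Each synthetase joins 1 amino acid to its matching tRNAs at the expense of ATP, so the set as a whole supplies the ribosome. Cytosolic and mitochondrial protein synthesis use largely separate enzymes, all encoded in the nucleus, although Gars and Kars each serve both compartments from 1 gene. Several cytosolic enzymes sit together in the multi-synthetase complex, held by the scaffold proteins Aimp1, Aimp2 and Eef1e1. Transcription of many cytosolic synthetases is known to follow ATF4, the transcription factor of the integrated stress response, and Wars, the tryptophan enzyme, is known as an interferon-inducible gene.

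RNA was measured on 18 Affymetrix Mouse Gene ST 1.0 arrays, 3 in each of 6 groups. Marrow cells were cultured for 10 days with 20 ng/ml GM-CSF and 10% serum, and all cultures, wild type included, received 100 nM 4-hydroxytamoxifen on day 6. Wild-type (Ubc9 WT) and knockout (Ubc9 KO) cells were each left unstimulated or given 10 ng/ml LPS for 1 h or 6 h. Ubc9 is the enzyme that attaches the small protein SUMO to its targets; the labels name neither the Cre line nor the age or number of mice. The deletion was not checked on these arrays. The series calls the 3 arrays of a group biological replicates, without saying whether each came from its own mouse, so the p-values below measure the spread between these arrays.

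Values are RMA signals on a log2 scale. An increase of 1 is a doubling, and the signal of 1 gene cannot be set against that of another because probes differ. A gene was called where the adjusted p, from limma with Benjamini-Hochberg adjustment over all 19938 genes, was under 0.05. Errors given with ± are standard errors of the limma fit, with 3 arrays in each group.

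The arrays of knockout cells at 6 h differed from all others in the upper part of their gene signals. Their 75th percentile lay between 7.43 and 7.63, against 7.72 to 7.85 in the other 5 groups. Their medians, 5.46 to 5.51, lay within the range of the other groups, 5.45 to 5.55. The arrays numbered 3 of the knockout stood apart from their partners, with the mean of 17 cell cycle genes at 6.23 on array 3 at 6 h and at 7.71 and 7.15 on the other 2. Among markers of dendritic cells, Itgax lay between 10.57 and 11.22 and Cd74 between 11.28 and 11.83 on all arrays, whereas the lineage genes Zbtb46 (4.92 to 5.53) and Flt3 (4.66 to 7.13) gave low readings. Of 7 such markers 1 (Dpp4) was called higher in the knockout at 6 h and 2 (Itgax and H2-Ab1) lower; Itgax was lower by 0.44 ± 0.08 at 6 h and was called lower in unstimulated knockout cells as well, but neither lower call at 6 h held with each array centred on its 75th percentile. The mean of 7 macrophage markers was 10.20 to 10.33 in knockout cells at 6 h and 9.82 to 10.00 in wild-type cells at 6 h, and 3 of these markers were called higher and 2 lower. That of 4 plasmacytoid dendritic cell markers was 7.71 to 7.91 against 6.62 to 6.74, with 2 of the 4 called higher. These were Tcf4 and Bst2, and Bst2 was called higher in unstimulated and 1 h knockout cells as well. Siglech and Ly6d were not called in any of these comparisons. In bulk RNA, fewer cells of a type and less RNA per cell cannot be told apart, and the part of these markers and of the cell cycle genes in the differences below was not tested.

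**Figure D1:**
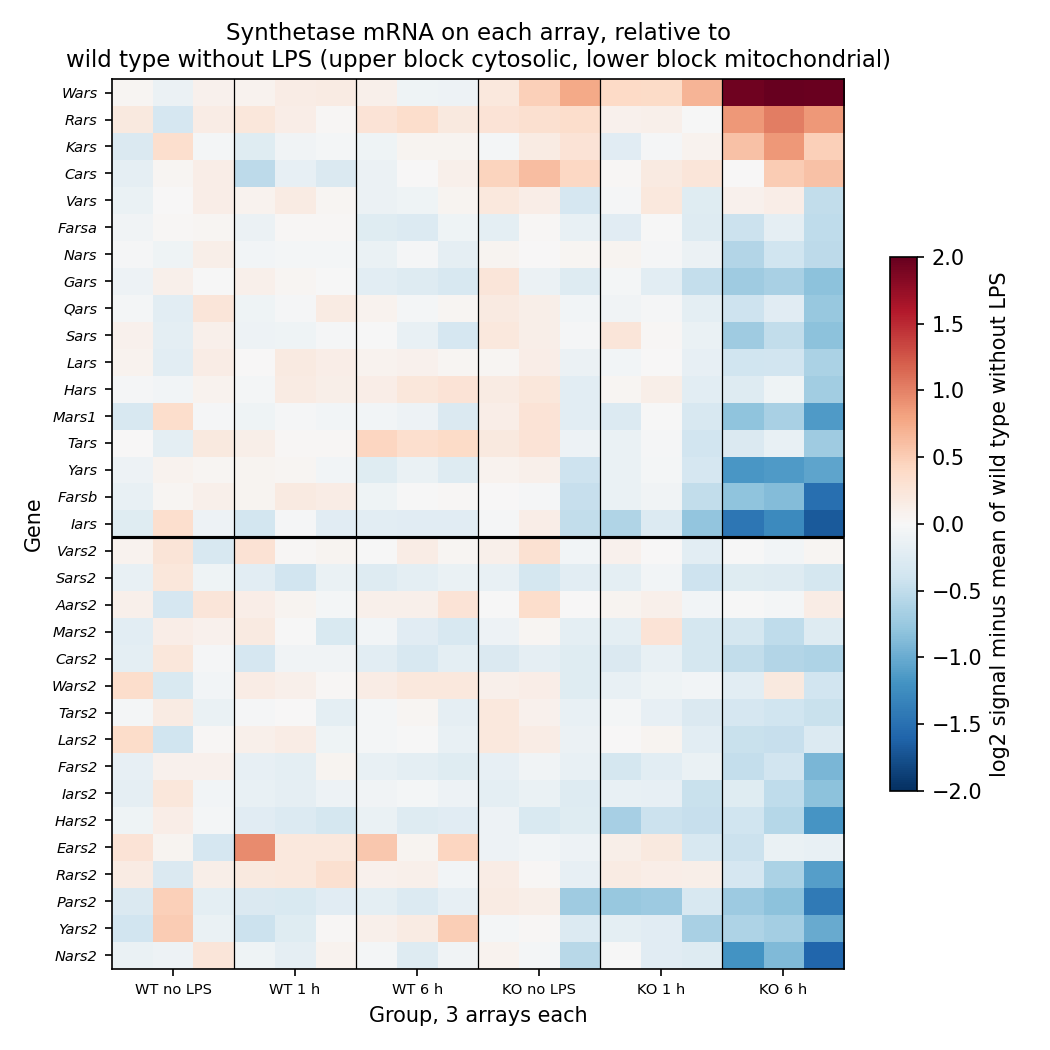
Each row is 1 synthetase gene and each column 1 array; colour gives the log2 signal minus the mean of the 3 unstimulated wild-type arrays, with the scale ending at 2 in each direction and a black line between cytosolic (upper) and mitochondrial (lower) genes. The right-hand block, knockout cells at 6 h, carries most of the colour: Wars, Rars and Kars are red and most other rows are blue, deepest on array 3 in many rows.

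Without LPS, loss of Ubc9 was accompanied by little change across the family. In unstimulated cells 1 of the 33 genes was called, where 2.44% of all genes were, and the median difference was 0.06 for the cytosolic and −0.09 for the mitochondrial genes. The called gene was Wars. Its signal was 8.14, 7.98 and 8.19 on the wild-type arrays and 8.32, 8.58 and 8.87 on the knockout arrays, so the groups did not overlap. The knockout was higher by 0.49 ± 0.12 (adjusted p = 0.0463). This call was lost in 16 of the 18 fits that leave out 1 array. It remained without unstimulated knockout array 1 or without knockout array 3 at 1 h, and over the 18 fits the adjusted p ran from 0.00899 to 0.228.

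Cars, the cysteine enzyme, was chosen for mention after its values were seen. It read 7.53, 7.74 and 7.84 in unstimulated wild-type cells and 8.14, 8.32 and 8.11 in unstimulated knockout cells. These groups also lay apart, by 0.49 ± 0.14, but the gene was not called (adjusted p = 0.0906). At 1 h of LPS its difference was 0.47 ± 0.14 (adjusted p = 0.113), and at 6 h it was 0.37 ± 0.14 (adjusted p = 0.0577), with the groups overlapping. Under a centring of each array on its 75th percentile the 6 h difference was 0.61 and was called (adjusted p = 0.007).

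At 1 h of LPS no synthetase differed between the genotypes by limma, where 2.19% of all genes were called. At an unadjusted p under 0.05 there were 4 of 33, against 11.1% of all genes. Wars read 8.18, 8.26 and 8.27 in wild-type cells and 8.50, 8.49 and 8.79 in knockout cells, a difference of 0.35 ± 0.12 (adjusted p = 0.199). The largest mitochondrial difference was that of Ears2, the glutamate enzyme, at −0.46 ± 0.20 (adjusted p = 0.385).

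At 6 h of LPS most synthetases were lower in the knockout. Of the 33 genes, 3 (9.09%) were called higher in the knockout and 21 (63.6%) lower. Among all genes 10.6% were called higher and 18.8% lower (29.4% in all), so the higher share was no larger in the family. Wars was 4.06-fold higher; Iars, Farsb, Nars2 and Yars2 were each lower by at least 2-fold. Among the cytosolic genes 3 rose and 11 fell, with a median difference of −0.49; among the mitochondrial genes 0 rose and 10 fell, with a median of −0.37. The median over all genes was 0.04. The same shares were also taken over the 11154 genes at or above the dimmest member (mean signal 5.09 over the 18 arrays): of these, 12.7% were called higher and 32.8% lower, with a median of −0.18. The 3 arrays of each genotype did not overlap for 3 genes that were higher and 22 that were lower, against 19.6% and 24.8% of all genes.

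These counts depend on how the arrays are scaled and on array 3. Centring each array on its 75th percentile moved the median of all genes from 0.04 to 0.28. It called 4 cytosolic genes higher and 8 lower, with a cytosolic median of −0.25. The mitochondrial genes then counted 0 higher and 3 lower, with a median of −0.12. Over all genes it turned 2116 higher and 3747 lower into 8169 higher and 2064 lower. Centring each array on its median instead gave 2165 higher and 3559 lower over all genes, close to the uncentred counts. Without knockout array 3 at 6 h, 3 cytosolic genes were called higher and 9 lower, and 3 mitochondrial genes lower. Over all genes the calls without it were 1455 higher and 2663 lower, so the loss of calls was not limited to the synthetases. Knockout array 3 gave the lowest of the 3 knockout values for 23 of the 33 genes.

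**Figure D2:**
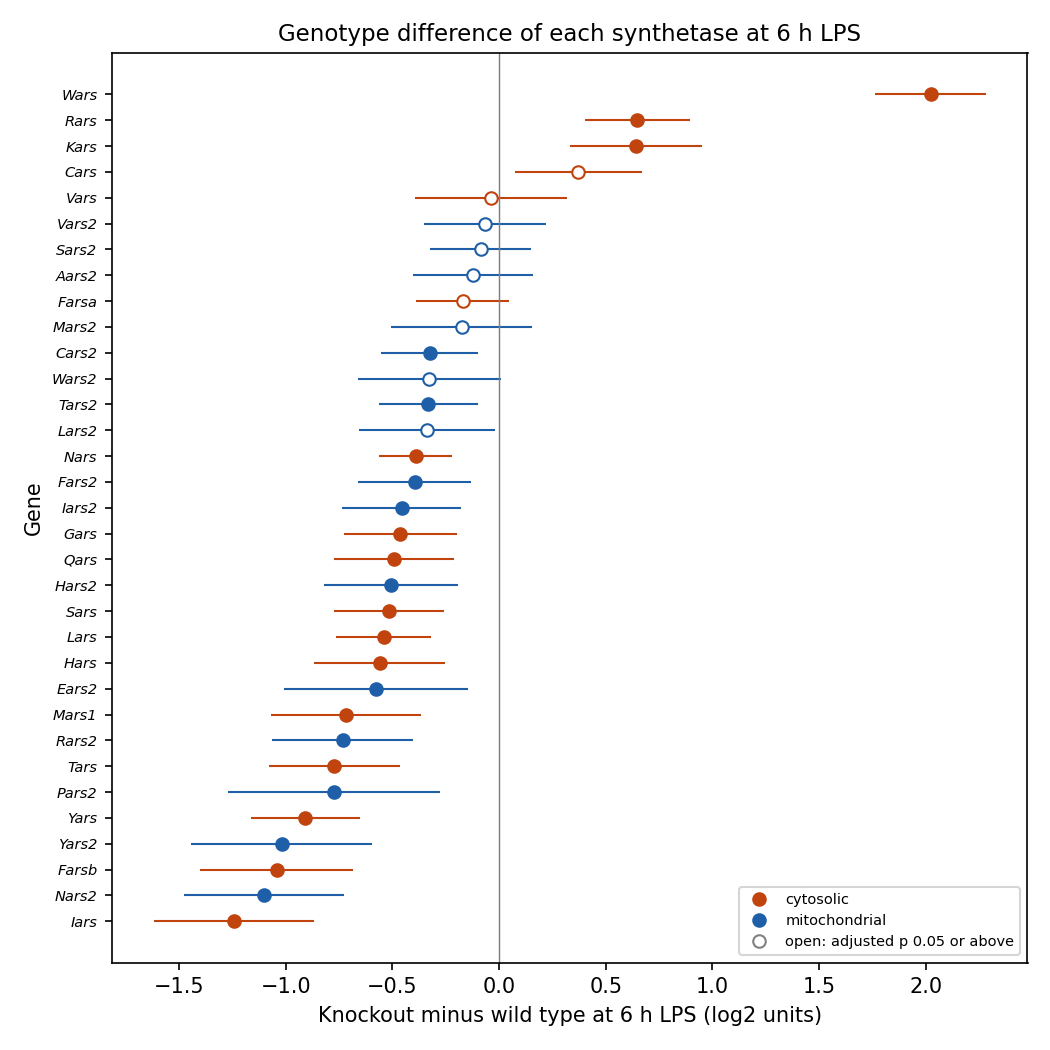
Points give the difference between knockout and wild-type cells at 6 h of LPS for each of the 33 genes in log2 units, and bars the 95% confidence interval of the limma fit; filled points were called. Wars stands alone at 2.02, Rars and Kars follow at 0.65 and 0.64, and 29 genes lie below 0, of which Farsa, Mars2, Aars2, Sars2, Vars and Vars2 turn positive when arrays are centred on the 75th percentile.

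Wars showed the largest difference. In wild-type cells at 6 h its signal was 8.21, 8.01 and 8.01, and in knockout cells 10.05, 10.17 and 10.09. The groups were far apart and each was narrow. The difference was 2.02 ± 0.12 (adjusted p = 1.79e-08), and leaving out any 1 array kept it between 1.99 and 2.09. Of all 19938 genes, 178 (0.893%) had a larger positive difference in this comparison.

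Rars and Kars, the arginine and lysine enzymes, were the other cytosolic genes that rose, and both proteins belong to the multi-synthetase complex. Rars read 10.03, 10.10 and 9.95 in wild-type and 10.62, 10.78 and 10.63 in knockout cells, a difference of 0.65 ± 0.12 (adjusted p = 0.000512). For Kars the values were 8.33, 8.46 and 8.46 against 9.001, 9.280 and 8.883, a difference of 0.64 ± 0.15 (adjusted p = 0.00323). Neither gene's groups overlapped, and both remained higher under the 75th percentile centring, at 0.89 and 0.88.

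The other 4 enzymes of that complex among the 33 went the other way. Iars, the isoleucine enzyme, had the largest fall of all 33 genes, from 8.61, 8.60 and 8.60 in wild-type cells to 7.39, 7.55 and 7.15 in knockout cells. This was a difference of −1.24 ± 0.18 (adjusted p = 7.23e-05), or 2.37-fold. A second, dimmer probe set for Iars read 7.89, 7.74 and 7.91 against 7.14, 7.06 and 6.60, with all knockout values below all wild-type values as well. Mars1, for methionine, differed by −0.72 ± 0.17 (adjusted p = 0.00373), Lars, for leucine, by −0.54 ± 0.11 (adjusted p = 0.00100), and Qars, for glutamine, by −0.49 ± 0.13 (adjusted p = 0.0100). The call for Qars was lost without knockout array 3 and under the 75th percentile centring. Of these 6 enzymes 2 thus rose and 4 fell.

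The remaining measured complex proteins, Eprs and the 3 scaffolds, were all lower in the knockout, 4 of 4 called. Aimp2 read 8.40, 8.48 and 8.60 in wild-type and 7.61, 7.67 and 7.18 in knockout cells (−1.01 ± 0.17, adjusted p = 0.000228). Aimp1 differed by −0.70 ± 0.13 and Eef1e1 by −0.58 ± 0.18. Eprs, the glutamate and proline enzyme, read 8.94, 8.98 and 8.91 against 8.44, 8.70 and 8.33 (−0.46 ± 0.11). Under the 75th percentile centring Eprs and Eef1e1 were no longer called, at −0.22 and −0.33.

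Among the cytosolic enzymes outside the complex, Yars, the tyrosine enzyme, fell from 7.16, 7.27 and 7.15 to 6.24, 6.27 and 6.36. The knockout arrays lay close together, and array 3 was the highest of them. The difference was −0.91 ± 0.12 (adjusted p = 3.83e-05). Farsb, the beta chain of the phenylalanine enzyme, fell from 8.96, 9.03 and 9.07 to 8.23, 8.17 and 7.53, a difference of −1.04 ± 0.17 (adjusted p = 0.000209). Array 3 was far below the other 2, and without it the difference was −0.82. Farsa, the alpha chain of the same enzyme, read 8.09, 8.06 and 8.24 against 7.90, 8.15 and 7.82 and was not called (−0.17 ± 0.10, adjusted p = 0.225), its groups overlapping. Whether the 2 chains differ in their change was not tested.

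Tars, the threonine enzyme, went from 8.13, 8.03 and 8.09 in wild-type to 7.41, 7.54 and 6.98 in knockout cells, a difference of −0.77 ± 0.14 (adjusted p = 0.000737) with no overlap. Gars, the glycine enzyme and the second that serves both compartments, differed by −0.46 ± 0.12 (adjusted p = 0.0103), the opposite direction to Kars. The remaining called cytosolic genes, for serine, histidine and asparagine, differed by −0.56 to −0.39. Those for valine, cysteine and the alpha chain of the phenylalanine enzyme were not called.

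The mitochondrial enzymes were lower in the knockout in all 16 cases by the sign of the difference, from −1.10 to −0.07, and 10 of the 16 were called. Under the 75th percentile centring 4 of the 16 were positive. Nars2, the asparagine enzyme, read 5.80, 5.58 and 5.77 in wild-type cells and 4.63, 4.95 and 4.25 in knockout cells (−1.10 ± 0.18, adjusted p = 0.000191). Yars2, for tyrosine, went from 7.23, 7.29 and 7.61 to 6.51, 6.45 and 6.12 (−1.02 ± 0.20, adjusted p = 0.0011). In both cases the groups were well apart, and array 3 was the lowest knockout array.

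Rars2, the mitochondrial arginine enzyme, read 7.55, 7.57 and 7.41 in wild-type and 7.14, 6.83 and 6.37 in knockout cells (−0.73 ± 0.16, adjusted p = 0.00206). These 3 genes were called in each of the 18 fits that leave out 1 array and under the 75th percentile centring. The other 7 mitochondrial calls were each lost without at least 1 array, and 4 of the 10 mitochondrial calls were left without wild-type array 1 at 6 h. Among them were Iars2 (−0.46 ± 0.13, adjusted p = 0.0148), Hars2 for histidine (−0.51 ± 0.15, adjusted p = 0.0161) and Pars2 for proline (−0.77 ± 0.23, adjusted p = 0.0205), whose differences without knockout array 3 were −0.31, −0.27 and −0.56. Of the 14 cytosolic calls, 12 held in all 18 such fits. Those of Hars and Qars did not.

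**Figure D3:**
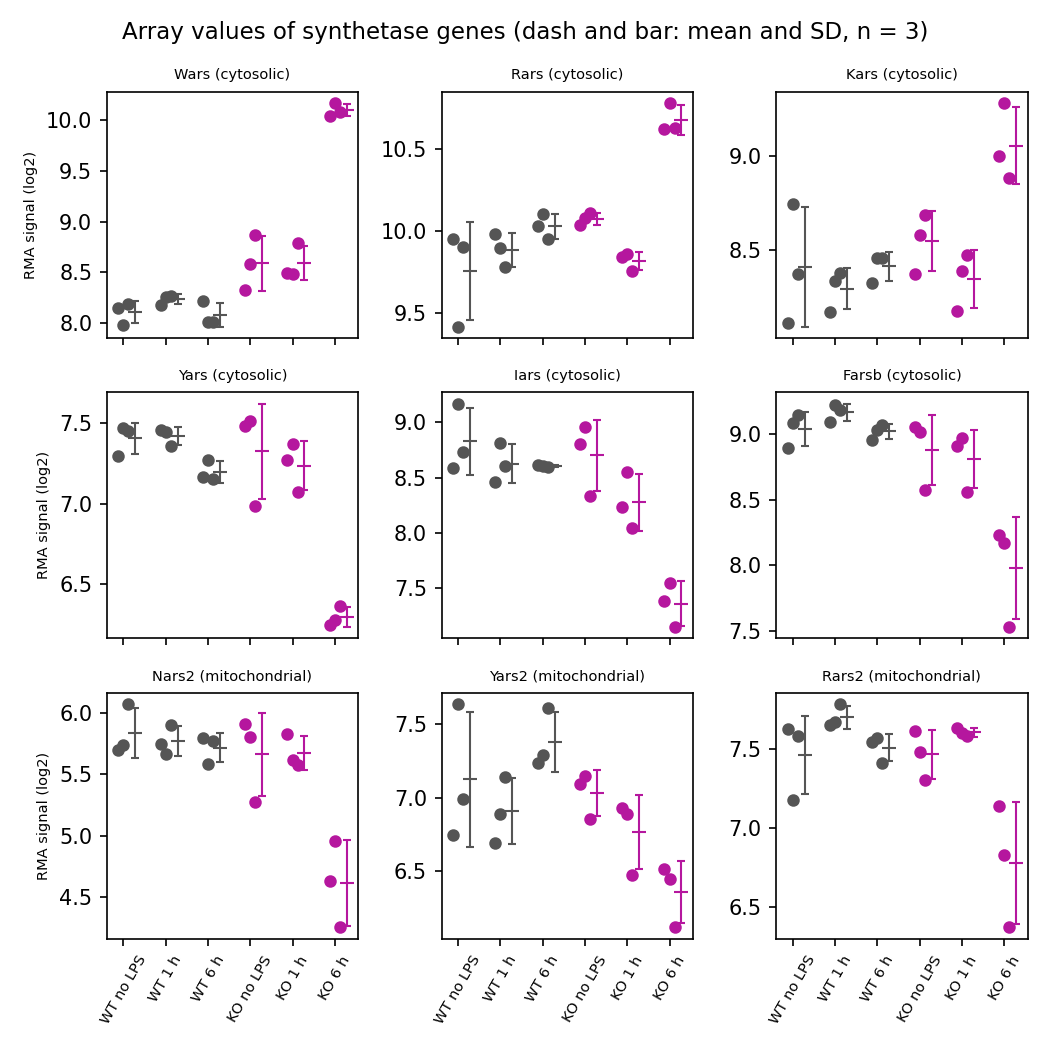
Log2 RMA signal of 9 synthetase genes on each array, by genotype and time of LPS; the dash and bar beside the points give the mean and SD of 3 arrays, and each panel has its own axis. Wars reads 10.05 to 10.17 in knockout cells at 6 h and at most 8.87 in every other group, whereas Iars, Yars and Nars2 have their lowest values in that group.

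For 14 comparisons of a cytosolic gene or chain with the mitochondrial gene for the same amino acid, 11 had both differences below 0 at 6 h. In the other 3 the cytosolic gene was higher and its mitochondrial counterpart lower: Wars with Wars2, Rars with Rars2, and Cars with Cars2. Wars2 was not called (−0.33 ± 0.16, adjusted p = 0.133), nor was Cars. For arginine both enzymes were called, in opposite directions, at 0.65 and −0.73. For tyrosine both enzymes fell, at −0.91 and −1.02. Sorted by the structural classes of synthetase, 2 of 18 class I genes rose and 10 fell, and 1 of 15 class II genes rose and 11 fell.

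LPS alone did little to these genes in wild-type cells. After 1 h limma called 0 of 33, where 0.301% of all genes were called, and 3 of 33 had an unadjusted p under 0.05, as did 5.75% of all genes. After 6 h it again called 0 of 33, where 8.1% of all genes were called, with 3 at an unadjusted p under 0.05, against 18.4% of all genes, and medians of −0.03 for the cytosolic and −0.07 for the mitochondrial genes. Tars had the largest response, from 7.71, 7.50 and 7.89 unstimulated to 8.13, 8.03 and 8.09 at 6 h. The change of 0.39 ± 0.14 was not called (adjusted p = 0.135). With the array numbers as blocks within a genotype it was (adjusted p = 0.00651), and it was then the single synthetase called. The largest mitochondrial responses were those of Ears2 (0.34 ± 0.20) and Yars2 (0.25 ± 0.20), not called.

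Wars did not move in wild-type cells, although reference interferon genes did. Its values of 8.14, 7.98 and 8.19 before LPS and 8.21, 8.01 and 8.01 at 6 h overlapped, and the response was −0.03 ± 0.12, with a 95% confidence interval from −0.29 to 0.23. Of 16 genes of tryptophan use and the interferon system measured beside it, 7 rose in wild-type cells at 6 h, among them Ifit3 by 4.77 ± 0.43, Ifit1 by 4.97 ± 0.45 and Cxcl10 by 5.61 ± 0.58. Over all genes 4.23% rose in that response. In unstimulated knockout cells 7 of the 16 were already higher than in wild-type cells, where 1.80% of all genes were higher. At 6 h of LPS 13 of the 16 were higher in the knockout and 0 lower, where 10.6% of all genes were higher and 18.8% lower. The 13 were led by Ifnb1, the gene of interferon beta (7.35 ± 0.40), Irf7 (3.41 ± 0.39) and Ifit3 (2.76 ± 0.43). Ifit1, an antiviral interferon-induced gene, read 4.64, 4.47 and 4.73 in unstimulated wild-type cells, 9.75, 10.48 and 11.13 in unstimulated knockout cells and 12.04, 11.92 and 11.89 in knockout cells at 6 h. In Ifit1 the knockout was thus far above the wild type before LPS, whereas Wars differed by 0.49 before LPS and rose by 1.51 in knockout cells by 6 h. Ifit1 does not stand for all 16 genes. By 6 h 11 of the 16 rose in knockout cells, where 12% of all genes rose. For 3 of the 16 (Ifnb1, Kynu and Cxcl9), as for Wars, the knockout response was called higher than the wild-type response. For 2 (Ifit3 and Ifit1) it was called lower, and 11 were not called. Over all genes these shares were 3% higher and 7.18% lower.

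In knockout cells 1 h of LPS called 0 synthetases by limma, where 0.667% of all genes were called, and 3 had an unadjusted p under 0.05, as did 8.56% of all genes. The largest changes were those of Iars (−0.42 ± 0.18) and Pars2 (−0.46 ± 0.23). By 6 h, 23 of the 33 were called, 3 higher and 20 lower, where 12% of all genes rose and 20.2% fell (32.2% in all). Wars rose from 8.32, 8.58 and 8.87 to 10.05, 10.17 and 10.09, by 1.51 ± 0.12 (adjusted p = 1.83e-07). Rars rose by 0.60 ± 0.12 (adjusted p = 0.000802) and Kars by 0.51 ± 0.15 (adjusted p = 0.0134), the latter not called without unstimulated knockout array 1 or without knockout array 2 at 6 h.

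The knockout response shares the 6 h knockout arrays with the genotype difference, so the falls in the 2 comparisons are not independent. Iars fell from 8.80, 8.96 and 8.34 to 7.39, 7.55 and 7.15, by 1.34 on the log2 scale (± 0.18, adjusted p = 2.78e-05). Yars went from 7.48, 7.51 and 6.99 to 6.24, 6.27 and 6.36 (−1.04 ± 0.12, adjusted p = 7.46e-06). Nars (−0.54 ± 0.08), Sars (−0.78 ± 0.12) and Mars1 (−0.93 ± 0.17) followed by adjusted p. In each of these 5 the 6 h values lay below all unstimulated values. Over the family the 3 arrays of each time did not overlap for 3 genes that were higher at 6 h and 21 that were lower, against 17.3% and 23.6% of all genes.

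Among mitochondrial genes Nars2 fell from 5.91, 5.80 and 5.28 to 4.63, 4.95 and 4.25 (−1.05 ± 0.18, adjusted p = 0.000252), without overlap. Rars2 fell by 0.69, Tars2 by 0.45, Fars2 by 0.46, Pars2 by 0.85 and Hars2 by 0.51. Of the 9 mitochondrial calls in this response, those of Nars2, Rars2 and Tars2 held in all 18 fits that leave out 1 array. Without knockout array 3 at 6 h 4 were called, and without unstimulated knockout array 1 or 2 there were 5. The calls of Fars2, Hars2 and Pars2 were lost without knockout array 3 at 6 h, at −0.30, −0.27 and −0.63. With the array numbers as blocks within a genotype, Farsa (adjusted p = 0.0117) and Iars2 (adjusted p = 0.0196) were added on the lower side, for 25 calls in all. Under the 75th percentile centring the knockout response counted 3 cytosolic genes higher and 9 lower and 3 mitochondrial genes lower, while all genes went from 2398 higher and 4019 lower to 8895 higher and 2089 lower.

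The difference between the genotypes' 6 h responses was tested as an interaction. It called 12 of 33 synthetases, 1 higher and 11 lower, where 10.2% of all genes were called (3% higher and 7.18% lower). Wars had an interaction of 1.54 ± 0.17 (adjusted p = 7.11e-05). The cytosolic genes with the smallest adjusted p after it were Yars (−0.83 ± 0.17, adjusted p = 0.00608), Iars (−1.11 ± 0.25, adjusted p = 0.0102) and Tars (−0.89 ± 0.20, adjusted p = 0.0112). These 4 held in all 18 fits that leave out 1 array and under the 75th percentile centring. The remaining 8 calls, among them Lars (−0.56), Nars (−0.43), Nars2 (−0.93), Rars2 (−0.74) and Yars2 (−0.93), were each lost in some fit that left out 1 array. Between 4 and 7 synthetases were called without unstimulated knockout array 1 or 2, knockout array 3 at 6 h, unstimulated wild-type array 1 or any 1 of the wild-type arrays at 6 h.

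Rars and Kars rose in the knockout without a called interaction, at 0.33 ± 0.16 (adjusted p = 0.22) and 0.50 ± 0.21 (adjusted p = 0.133). With the blocks, 17 synthetases were called; the interaction of Kars was then among them (adjusted p = 0.0404) and those of Qars, Hars, Gars and Tars2 were added on the lower side. Under the 75th percentile centring the interaction called 3 synthetases higher and 5 lower, and Rars (0.62, adjusted p = 0.0252) and Kars (0.79, adjusted p = 0.0252) were then among the higher ones. Over all genes the interaction went from 599 higher and 1432 lower to 2830 higher and 588 lower under that centring. The interaction at 1 h called 0 synthetases and 0 of all genes by limma, with and without the blocks; 1 synthetase and 592 of all genes had an unadjusted p under 0.05 without them.

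**Figure D4:**
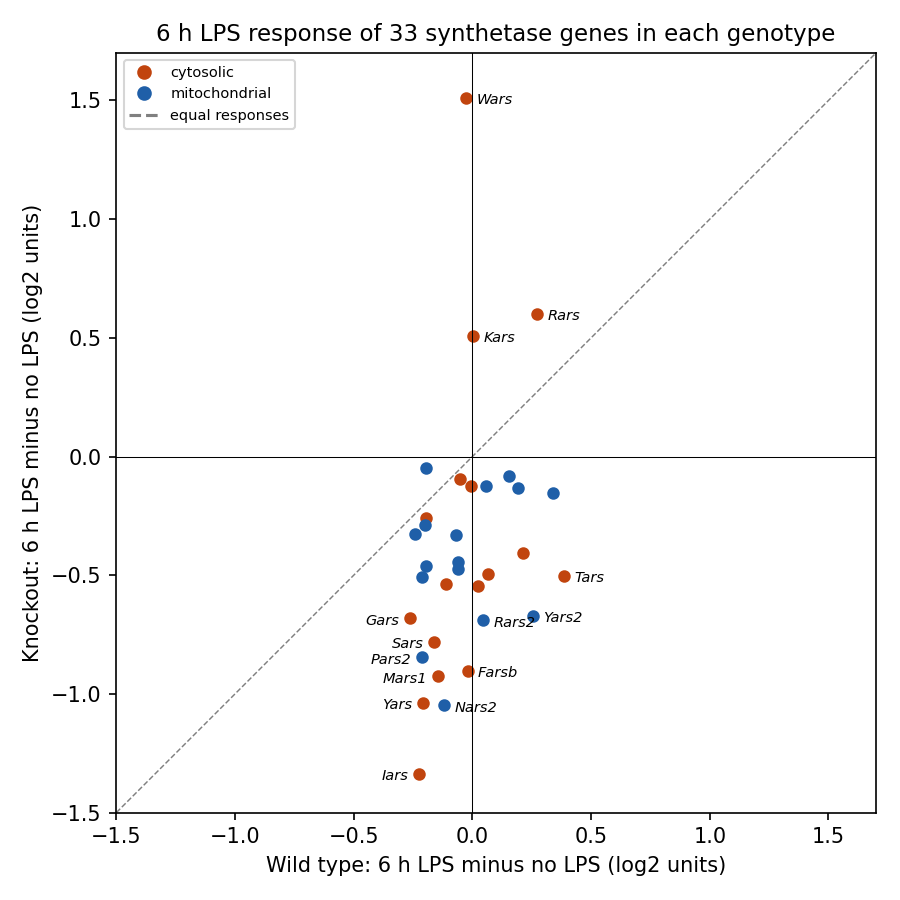
Each point is 1 synthetase gene, with its 6 h LPS response in wild-type cells on the x axis and in knockout cells on the y axis, both in log2 units; the dashed line marks equal responses. The wild-type responses lie between −0.26 and 0.39, the knockout responses between −1.34 and 1.51, and Wars, at −0.03 and 1.51, is farthest above the line.

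Genes that work beside the mitochondrial enzymes moved in both directions at 6 h. For the lists in this paragraph, the shares over all genes were 10.6% higher and 18.8% lower. Among the genes at or above the dimmest synthetase they were 12.7% and 32.8%. Of 11 genes that process, modify or further convert mitochondrial tRNAs, 8 were lower in the knockout, among them Mto1 (−0.80 ± 0.12) and Trmu (−0.71 ± 0.12), which modify tRNA, and Gatc (−0.94 ± 0.14), part of the enzyme that makes glutaminyl-tRNA in mitochondria. Pnpt1, a mitochondrial RNA-degrading enzyme also known as interferon-inducible, was higher, at 9.29 to 9.70 against 7.92 to 8.04 (1.55 ± 0.17). Of 14 mitochondrial transcription and translation factors 1 was higher and 9 lower, led by Tfb2m (−1.56 ± 0.17), Mrrf (−1.15 ± 0.15) and the elongation factor Tufm (−0.79 ± 0.13). Of 14 cytosolic initiation and elongation factors 0 were higher and 8 lower, led by Eif3a (−0.76 ± 0.10), Eif4e (−0.48 ± 0.09) and Eif5 (−0.45 ± 0.10), of which the latter 2 were not called under the 75th percentile centring.

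Of 24 ATF4 and integrated stress response genes 4 were higher in the knockout at 6 h and 4 lower, with a median of −0.01. The shares over all genes were 10.6% higher and 18.8% lower. The higher genes were Eif2ak2, Ppp1r15a, Trib3 and Ddit3, and the lower genes Eif2ak3, Eif2ak4, Eif4ebp1 and Aldh18a1. The kinase genes of the integrated stress response split, Eif2ak2 (1.64 ± 0.25), which is also interferon-inducible, being higher and Eif2ak3 (−1.38 ± 0.15) and Eif2ak4 (−1.15 ± 0.24) lower. In wild-type cells LPS raised 6 of the 24 at 6 h and lowered 1, where 4.23% of all genes rose and 3.86% fell. Asns, the asparagine synthetase that ATF4 is known to induce, rose there by 1.34 ± 0.21. It was also called higher in knockout cells after 6 h of LPS. The part of ATF4 in the synthetase changes was not tested. Of 15 amino acid transporters 0 were higher and 4 lower in the knockout at 6 h, led by Slc1a5 (−1.43 ± 0.12); this count lies between the shares of lower calls among all genes (18.8%) and among the genes at or above the dimmest synthetase (32.8%). Of 13 genes of the MYC network, which is known to drive genes of protein synthesis, 2 were higher and 9 lower, led by Mxd1 (2.72 ± 0.24), Mnt (−0.57 ± 0.09) and Max (0.70 ± 0.11); Mxd1 and Mnt encode antagonists of MYC and Max the partner that all of them bind.

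Promoters are shown for some of the cytosolic genes that fell, picked because their windows hold short motifs known from ATF4 and MYC targets. RefSeq windows of the assembly GRCm38.p6, from 250 bases before to 50 after the transcription start, were found for 24 of the 33 genes. Those of Cars, Hars, Hars2, Lars, Nars, Pars2, Rars, Vars and Wars were not. The C/EBP-ATF response element was searched on both strands as TGATGNAA, the E-box as CACGTG and the interferon-stimulated response element as GAAA, any 2 bases, GAAA; none of the 3 contains another. The sites below lie upstream of the start, are written 5′ to 3′ on the strand of the gene, and have the motif, or its reverse complement, in capitals.
Gars, chr6:55037951-55037998, plus strand: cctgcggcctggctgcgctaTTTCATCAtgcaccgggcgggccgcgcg
Tars, chr15:11399659-11399693, minus strand: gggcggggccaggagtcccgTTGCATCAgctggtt
Iars, chr13:49682041-49682086, plus strand: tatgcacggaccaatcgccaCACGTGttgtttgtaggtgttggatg
Farsb, chr1:78488911-78488956, minus strand: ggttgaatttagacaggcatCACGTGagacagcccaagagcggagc

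The first 2 lines hold the C/EBP-ATF element and the last 2 the E-box. The C/EBP-ATF element was present in 4 of the 24 windows, Gars, Tars, Iars and Yars, that is in 4 of 10 cytosolic and 0 of 14 mitochondrial windows, against 3.97% of all 32851 windows of the table. The E-box was present in 4 of 24 windows (Farsb, Iars, Tars and the mitochondrial Ears2), or 16.7%, against 7.15% of all. The interferon element was present in 1, that of Qars, against 3.44% of all. All 5 cytosolic genes with the C/EBP-ATF element or the E-box fell at 6 h in the knockout relative to the wild type, as did 3 of the other 5 with a window, Mars1, Qars and Sars. Of the cytosolic genes not called lower, only Kars and Farsa had a window, whereas Wars, Rars, Cars and Vars had none. No link between motif and direction can therefore be read from these counts. A match to so short a motif describes the letters of the window and was not tested as a binding site.

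The 10 named genes whose signal followed that of Wars most closely over the 18 arrays were Clic5, Asb13, Inpp1, Tlr3, Slc25a22, Nlgn2, Dbnl, Tut7, Vcpip1 and Fndc3a. Their Pearson correlations with Wars ran from 0.985 for Clic5 to 0.972 for Fndc3a. The arrays share their groups, and the high correlations come with the separation of 1 group, the knockout cells at 6 h, from the rest. Spearman's rho for the same genes was 0.84 for Clic5, 0.92 for Asb13 and 0.77 for Fndc3a. Clic5, a chloride channel family gene, averaged 4.81 in unstimulated wild-type cells, 5.97 in unstimulated knockout cells and 10.73 in knockout cells at 6 h. Tlr3, the receptor for double-stranded RNA, averaged 7.65, 8.25 and 10.75 in the same groups.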

How the data were processed

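The deposited values are per-array log2 signals made by the authors with RMA, per the submitters' processing notes; the log base is inferred from the range (1.50 to 13.71), and no build or software version is given in the sources used here. RMA sets all arrays to 1 distribution over probes, so a change of total RNA per cell cannot be seen. The table has 35556 probe sets, of which 21789 carry 1 gene symbol and 1621 several; those with 1 symbol gave 19938 genes, with the probe set of the highest mean kept for each. No detection calls were used.

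One limma fit (version 3.58.1, R 4.3.3) of 6 group means to all 18 arrays, with 12 residual degrees of freedom, gave 9 two-sided contrasts, adjusted by Benjamini-Hochberg over all genes. The fit was tested on simulated data. The members and lists were chosen with earlier results of these data known. Named in each comparison, per compartment, were up to 6 called members by smallest adjusted p, or up to 2 with the largest change. Wars was named in each comparison. From each gene list up to 3 called genes were named. All calls were named for the ATF4 genes between the genotypes at 6 h, and for the interferon genes in the 6 h interaction. Partners and complex members were named as such.

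The array numbers were checked as pairs. Deviations from group means of same-numbered arrays of a genotype correlated at 0.15 to 0.80 across genes in all 18 pairs, so the numbers pair arrays within a genotype; between genotypes they ranged from −0.11 to 0.30, and arrays there share only a number. The alternatives were the replicate block, fits of only the groups compared, array weights, median and 75th percentile centring, leaving out the dimmest 25% of genes, the mean of a gene's probe sets, a trended robust variance, each array left out and, added after seeing the data, all 3 knockout arrays numbered 3 left out.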

Additional observations from a re-analysis of the deposited data

Results flagged for a closer look

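The 6 h LPS response differed between the genotypes for 12 synthetases by the interaction term. The interaction, knockout minus wild-type response in log2 units, was positive for Wars (1.54). It was negative for the cytosolic genes Iars (−1.11), Tars (−0.89), Farsb (−0.88), Yars (−0.83), Mars1 (−0.78), Sars (−0.62), Lars (−0.56) and Nars (−0.43). It was also negative for the mitochondrial genes Nars2 (−0.93), Yars2 (−0.93) and Rars2 (−0.74). Wars had a wild-type response of −0.03 and a knockout response of 1.51. Tars was positive in wild-type cells at 0.39, a change that was not called, and fell by 0.50 in knockout cells. The fits with 1 array left out kept the calls of Wars, Iars, Tars and Yars.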

How the results depend on the processing

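Directions held for every named call under every alternative run. The counts of called synthetases moved by over 1.5 times in the following cases; the cause was not tested. Between unstimulated genotypes, 1 became 2 with the replicate block and 0 with only the groups compared, with median or 75th percentile centring, and without the 3 knockout arrays numbered 3. At 1 h, 0 became 1 with the block and with array weights. In the 6 h genotype comparison 24 became 15 with 75th percentile centring, and in the 6 h knockout response 23 became 15. In the 6 h wild-type response 0 became 1 with the block and without the 3 knockout arrays numbered 3. In the 1 h knockout response 0 became 1 with array weights. In the 6 h interaction 12 became 4 with only the groups compared. In the genotype comparisons, where the arrays share only a number, the block added the call of Cars in unstimulated cells, at 1 h and at 6 h (adjusted p = 0.00883, 0.0117 and 0.00983) and changed no other synthetase call. In the LPS responses and the 6 h interaction it removed no synthetase call, and those it added were Tars in wild-type cells, Farsa and Iars2 in knockout cells and the 5 of the interaction.

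With 1 array left out, counts ranged from 0 to 1 between unstimulated genotypes and at 1 h, from 15 to 25 at 6 h, from 0 to 0 for the 1 h responses, the 6 h wild-type response and the 1 h interaction, from 16 to 24 for the 6 h knockout response and from 4 to 15 for the 6 h interaction. The 15 came without knockout array 3 at 6 h, and the 1 at 1 h without knockout array 1 at 6 h. For the interaction, fewer than 8 were called without unstimulated knockout array 1 (4) or 2 (5), knockout array 3 at 6 h (5), unstimulated wild-type array 1 (7), or wild-type array 1 (6), 2 (5) or 3 (7) at 6 h. Without all 3 knockout arrays numbered 3, the 6 h genotype comparison called 17, the knockout response 19 and the interaction 10. Over all genes these called 4645, 5534 and 2187, against 5863, 6417 and 2031 with all arrays. Of 65 named results, 25 lost their call with 75th percentile centring, 18 with only the groups compared, 15 without the 3 knockout arrays numbered 3, 8 with median centring and 2 with array weights.

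Over all genes the block called 3002 genes for the 6 h wild-type response, against 1614, and 4347 for the 6 h interaction, against 2031; 75th percentile centring called 10233 for the 6 h genotype comparison, against 5863, 10984 for the knockout response, against 6417, and 3418 for the interaction. With 3 arrays a group and no detection calls, changes of dim genes such as Pars2 and Nars2 call for caution. The 6 h genotype call of Pars2 was lost in 3 of the 18 fits that leave out 1 array. That of Nars2 held in all 18.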
